A study of Mus musculus with 2 samples.

Results

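RGS genes encode regulators of G protein signalling, and Rgs16 had one of the largest ratios between the 2 liver libraries of this series. The 9 genes described here, Rgs16, Rgs1, Rgs2, Rgs3, Rgs5, Rgs10, Rgs12, Rgs14 and Rgs19, were taken by symbol from 24421 listed genes. The set was chosen by the Rgs16 ratio, so values of the genotype comparison describe these genes and test nothing. Both libraries came from liver of male C57BL/6 mice that started a high-fat diet at 6 weeks of age and stayed on it for 12 weeks. The control library was from RORα f/f mice, with floxed alleles of the nuclear receptor gene Rora. The other was from RORα f/f:Alb-Cre mice, labelled LKO for liver-specific knockout. Its albumin promoter drives Cre in hepatocytes. Which liver cells kept intact floxed alleles was not measured here. The controls carried no Cre, so Cre itself and loss of Rora cannot be told apart. The sources used here give neither the number of animals behind a library nor the hour at which livers were taken.

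RGS proteins bind active G protein alpha subunits and speed the hydrolysis of their GTP, which ends the signal of a G protein-coupled receptor sooner. Most members of the R4 subfamily (Rgs1, Rgs2, Rgs3, Rgs5 and Rgs16 here) are small proteins that act on the Gi and Gq classes. The R12 subfamily (Rgs10, Rgs12, Rgs14) and the RZ subfamily (Rgs19) act mainly on the Gi class. In mouse liver, Rgs16 is known as a gene of periportal hepatocytes that follows feeding, fasting and the daily clock, and as a target of the glucose-responsive factor ChREBP.

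The region just upstream of Rgs16 is printed here because this gene carries the largest difference of the family. Rgs16 is a protein-coding gene on the plus strand of chromosome 1, at 153740349 to 153745468 in mm10 (GENCODE). Its upstream window, from RefSeq on GRCm38.p6, the same assembly as mm10, covers the 250 bases before the RefSeq start, chr1:153740103-153740352 on the plus strand, 5′ to 3′.
Rgs16 upstream window: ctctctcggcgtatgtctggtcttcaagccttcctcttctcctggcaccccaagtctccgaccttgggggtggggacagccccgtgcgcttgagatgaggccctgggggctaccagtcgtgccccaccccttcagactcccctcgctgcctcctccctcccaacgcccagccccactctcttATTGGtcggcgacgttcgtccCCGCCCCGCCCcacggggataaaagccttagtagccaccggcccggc
Capitals mark a CCAAT box (letters CCAAT, read on the minus strand), 64 to 68 bases before the start, and 2 GC boxes (GGGCGG, minus strand) that share 1 base and together span 37 to 47 bases before it. G and C made up 66.4% of the window. The half-site that ROR proteins bind, searched as AGGTCA on both strands, was not in this window. Neither was the E-box, searched as CACGTG, nor the cAMP response element, searched as TGACGTCA. The TATA box, searched as TATAAA on both strands, was not in it either. Upstream windows were at hand for 7 of the 9 genes, 11 windows in all as some genes have several starts. The ROR half-site was in 0 of the 11 and in 14% of 32851 mouse windows of the same length. The E-box and the cAMP response element were also in 0 of the 11, against 6.02% and 1.55% of all windows, and the TATA box was in 2, both of Rgs3, against 12.4%. The GC box was in 8 of the 11 and in 32.7% of all windows, and the CCAAT box in 3 (Rgs2, Rgs5 and Rgs16) and in 33.8%. These matches describe letters only.

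The control had 128201591 counts in all and the LKO-labelled library 131843686. Levels are counts scaled to library size (CPM) by edgeR's TMM method, which aligns the bulk of genes. A gene is called measured at 20 or more counts in sum and a mean of 1 CPM or more, and 11137 genes were. No value below has a replicate check, as each genotype has 1 library, and each bracketed range is a 95% interval for counting error alone. Rora itself had 3701 counts in the control and 3677 in the other library, which was 1.38-fold lower after scaling. The log2 ratio of Rora was −0.47, or −0.05 with total-count scaling. Gene totals do not show which exons were read, so loss of Rora was not tested here. Directions below are therefore those of the LKO-labelled library. Total-count scaling would add 0.42 to every log2 ratio.

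Rgs16 was a low transcript in the control and an abundant one in the LKO-labelled library. It had 149 counts, or 1.34 CPM, in the control and 15468 counts, or 101 CPM, in the LKO-labelled library. That is 75.5-fold higher (64.2 to 89.3), a log2 ratio of 6.24. Per kilobase of its coding transcript, Rgs16 stood at 0.575 CPM in the control, above 12.5% of 10328 measured genes with a known coding transcript length. In the LKO-labelled library it stood at 43.4 CPM per kilobase, above 90.9% of them. Only 5 measured genes had a larger ratio. Among the 10715 genes with at least 1 CPM in each library, a limit chosen after the values were seen, 0 had a larger ratio than Rgs16.

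**Figure D1:**
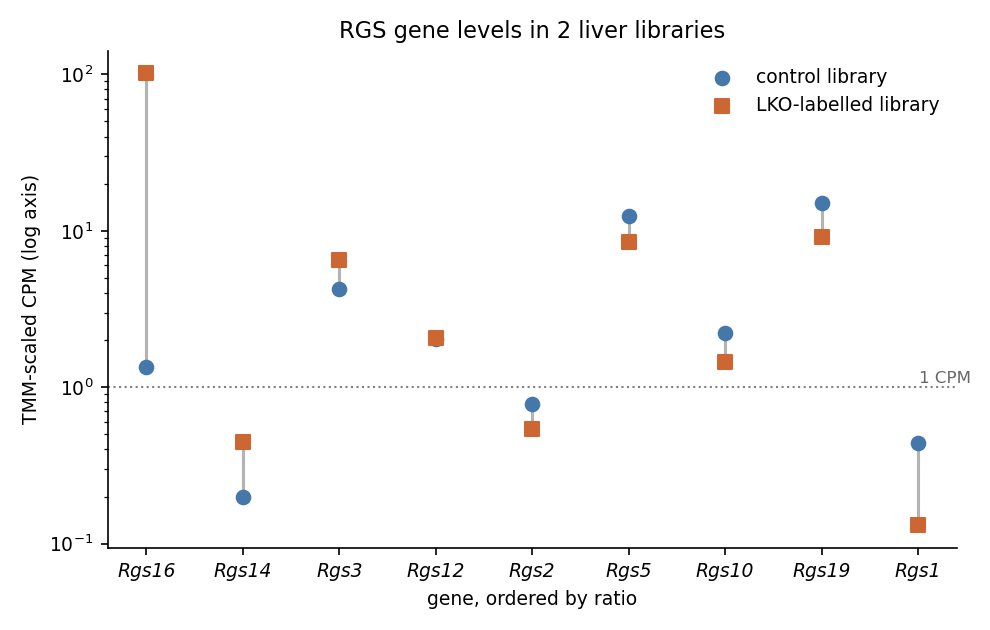
TMM-scaled CPM (log axis) of the 9 RGS genes in the control library (circles) and the LKO-labelled library (squares), 1 library each, ordered by ratio. Rgs16 goes from 1.34 to 101 CPM, while every other member differs by at most 3.37-fold, and Rgs14, Rgs2 and Rgs1 lie below 1 CPM in both libraries.

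The 5 named genes with the log2 ratios nearest that of Rgs16, among genes with a mean of at least 5 CPM, were Hist1h3d, Duxbl3, Duxbl2, Duxbl1 and Hist1h4d. The first and last are histone genes, and the Duxbl genes encode homeobox proteins of close copies. Hist1h3d was 80.4-fold higher (62.4 to 106), from 60 to 6638 counts. Duxbl2 and Duxbl3 had identical counts, 347 and 29064, or 60.9-fold higher each. Likeness here means a single ratio over 2 libraries.

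The neighbours of Rgs16 described here did not share its count. The lincRNA gene C230024C17Rik, 2.52 kb before it on the other strand, had 0 counts in the control and 2 in the LKO-labelled library. The brain-enriched family member Rgs8, 40.0 kb before it, had 1 and 5 counts, and Rgsl1, 33.9 kb after it, had 0 in both. The Rgs16 counts differed by 15319, and 0 of its 10 listed neighbours within 250 kb had a count difference within 5% of that. Of these neighbours 2 were measured. Glul, the glutamine synthetase gene of pericentral hepatocytes, 154 kb away, was 2.20-fold higher (2.17 to 2.23), from 25606 to 77526 counts. Mir8114, listed beside Glul, was 1.84-fold higher (1.55 to 2.20), and its reads cannot be told apart from those of Glul.

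**Figure D2:**
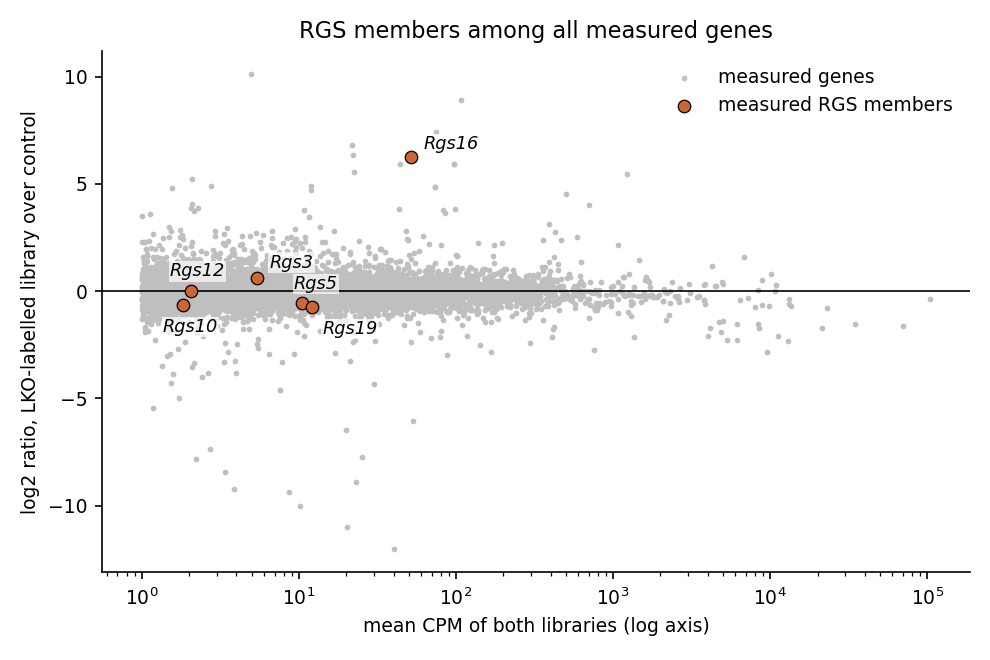
Log2 ratio (library labelled LKO over control) against mean CPM (log axis) for 11137 measured genes (grey), with the 6 measured RGS members in orange; a count of 0 was set to 3 counts. Rgs16 stands at 6.24 while Rgs3, Rgs5, Rgs10, Rgs12 and Rgs19 lie between −0.72 and 0.62.

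The make-up of the family differed between the libraries. Over the 21 genes named Rgs and a number, levels per kilobase put Rgs16 at 3.05% of the control sum and at 77.5% in the LKO-labelled library. The share depends on the length used: with the shortest coding transcript it was 0.723% and 42.4%, and when divided also by the number of curated transcripts it was 7.75% and 90.1%. In raw counts these genes summed to 4588 and 20110, and without Rgs16 to 4439 and 4642. The 8 other members alone summed to 4162 and 4384 counts. Their scaled sum was 37.5 CPM in the control and 28.8 CPM in the LKO-labelled library, a log2 ratio of −0.39 that became 0.03 with total-count scaling. So their joint level had no direction that held under both scalings.

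**Figure D3:**
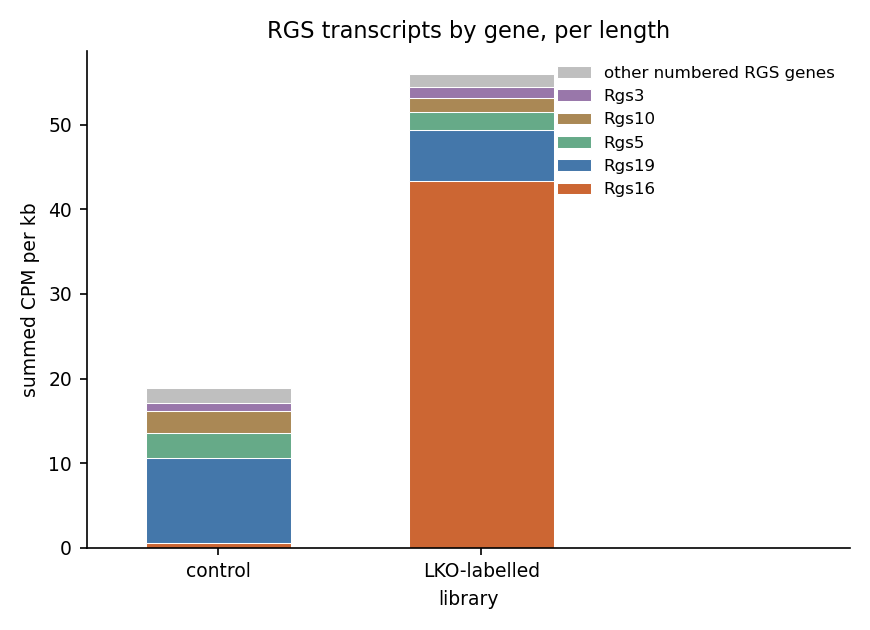
Summed CPM per kilobase of the longest coding transcript for the 21 numbered RGS genes in each of the 2 libraries, stacked by gene. Per kilobase of the longest transcript Rgs16 makes up 3.05% of the control bar and 77.5% of that of the LKO-labelled library (0.723% and 42.4% with the shortest coding one), and Rgs19 is the largest block of the control bar.

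The order of levels differed between libraries at its top. In the control library Rgs19 had the highest level per kilobase, 9.99 CPM, followed by Rgs5 at 3.05, Rgs10 at 2.54, Rgs3 at 0.908 and Rgs16 at 0.575. In the LKO-labelled library Rgs16 came first at 43.4, and Rgs19, Rgs5, Rgs10 and Rgs3 followed in the same order at 6.05, 2.06, 1.64 and 1.39 CPM per kilobase. The first place of Rgs19 in the control depends on how reads were counted. Of counts from 1 to 49, 54.3% and 50.8% were even in the 2 libraries for genes with 1 curated RefSeq transcript, and 68.0% and 66.8% for genes with 2, as when a gene's count is summed over its transcripts. RefSeq lists 7 curated transcripts for Rgs19, 4 for Rgs3, 2 each for Rgs5, Rgs12 and Rgs14, and 1 each for Rgs16, Rgs10, Rgs1 and Rgs2. Divided also by that number, Rgs10 led the control library at 2.54, with Rgs5 at 1.52, Rgs19 at 1.43 and Rgs16 at 0.575. Rgs16 still came first in the LKO-labelled library. Ratios between libraries do not change under this division. The counting intervals would be wider, as they take each count as a separate read.

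By the filter, 6 of the 9 members were measured, all but Rgs1, Rgs2 and Rgs14, and Rgs16 passed 1 CPM in each library. Of the 6, 2 were higher in the LKO-labelled library by 1.5-fold or more with an interval that excluded 1, Rgs16 and Rgs3, where 10.5% of all measured genes were. Another 2 were at least 1.5-fold lower, Rgs10 and Rgs19, where 9.76% of all measured genes were. At 2-fold only Rgs16 passed, where 3.83% of genes were higher and 2.62% lower. With total-count scaling the same 2 were higher, where 34.6% of genes were, and 0 were lower, where 2.53% of genes were.

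Among the other R4 members, Rgs3 was the only measured one that was higher. Rgs3, which acts on the Gi and Gq classes and has several long and short forms, had 473 counts (4.27 CPM) in the control and 999 (6.55 CPM) in the LKO-labelled library. It was 1.54-fold higher (1.37 to 1.72), just past the 1.5-fold limit, and its log2 ratio went from 0.62 to 1.04 with total-count scaling. Rgs5, known from pericytes and vascular smooth muscle, had 1384 counts (12.5 CPM) and 1287 counts (8.44 CPM). It was 1.48-fold lower (1.37 to 1.60), just short of the limit, and its log2 ratio was −0.56, or −0.15 with total-count scaling. Rgs2, which prefers Gq, had 87 and 83 counts, or 0.785 and 0.544 CPM, and was below the filter. Rgs1, a gene of activated B and T lymphocytes, had 49 and 20 counts, or 0.442 and 0.131 CPM. Its scaled level was 3.37-fold lower (1.97 to 5.99) in the LKO-labelled library, on counts below the filter. The log2 ratio of −1.75 stayed below 0, at −1.33, with total-count scaling.

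In the R12 and RZ subfamilies levels were lower or near equal, apart from Rgs14. Rgs10, a short Gi regulator abundant in macrophages and microglia, had 248 counts (2.24 CPM) in the control and 220 (1.44 CPM) in the LKO-labelled library, 1.55-fold lower (1.29 to 1.87). Rgs12, a long protein with PDZ and Ras-binding domains, had 226 and 313 counts, which was 2.04 and 2.05 CPM. Its ratio of 1.01 (0.846 to 1.20) did not differ from 1 beyond counting error, and its log2 ratio was 0.43 with total-count scaling. Rgs14, which also carries Ras-binding and GoLoco domains, had 22 and 68 counts, or 0.198 and 0.446 CPM. That is 2.25-fold higher (1.37 to 3.82), on counts below the filter. Rgs19, also known as GAIP, a membrane-bound Gi regulator, had 1673 counts (15.1 CPM) and 1394 (9.14 CPM), 1.65-fold lower (1.54 to 1.77). With total-count scaling the log2 ratios of Rgs10 and Rgs19 were −0.21 and −0.30, so both kept their sign and lost the 1.5-fold call. Tcea2, which ends 0.348 kb before Rgs19 on the other strand, had 5 and 51 counts.

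**Figure D4:**
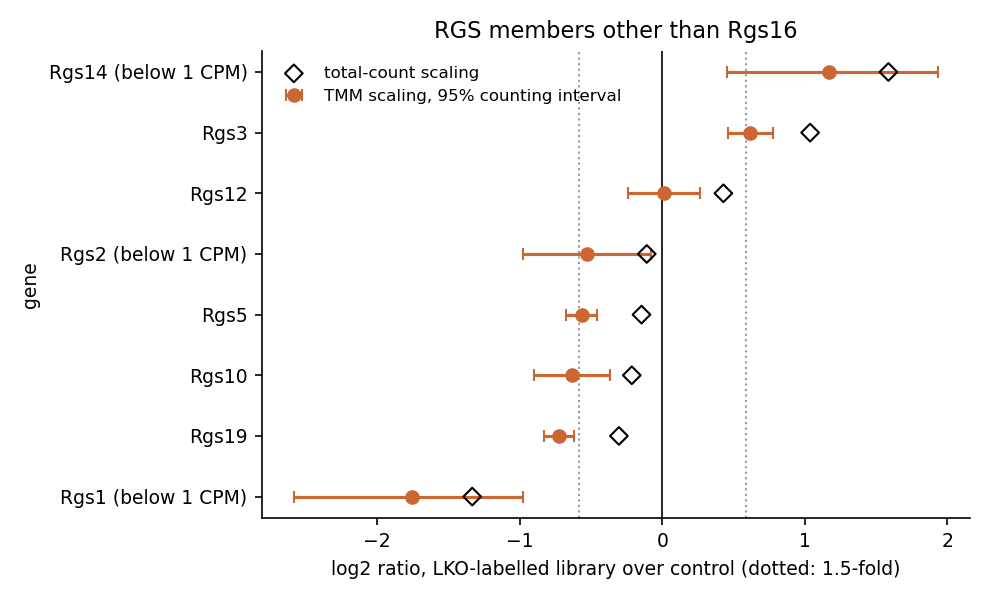
Log2 ratio (library labelled LKO over control) of the 8 members other than Rgs16, with TMM scaling (filled points, bars are 95% counting intervals) and total-count scaling (open diamonds). Rgs10 and Rgs19 lie past the lower 1.5-fold line with TMM scaling only, and the 3 genes below 1 CPM have the widest intervals.

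Known members of the family outside the 9 were scarce in both libraries. None of the 15 further genes in this list, numbered genes, 2 binding partners and Rgsl1, was measured. Rgs13, Rgs18, Rgs21, Rgs22 and Rgsl1 had 0 counts in both, which allows up to 0.0271 CPM in the control and 0.0197 CPM in the LKO-labelled library. Rgs4 and Rgs20, of the R4 and RZ subfamilies, had 87 and 42 counts and 99 and 102 counts. Among R7 genes, which act on Gi and Go mostly in neurons and retina, Rgs7 had 36 counts in the control and 0 in the LKO-labelled library, 16.5-fold lower when 0 is set to 3 counts, with a lower interval limit of 12.7. Rgs6 went the other way with 0 and 12 counts, 2.91-fold higher on the same terms, with a lower interval limit of 2.02. Rgs11 had 6 and 37, and Rgs9 had 34 and 54. Rgs17 had 14 and 6 counts, and Rgs7bp and Rgs9bp, which anchor R7 proteins at the membrane, had 91 and 60 and 6 and 2. Rgs4 lies 45.7 kb from Rgs5 and was 2.85-fold lower (1.95 to 4.22) on counts below the filter, and Rgs13, between Rgs2 and Rgs1, was at 0.

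Markers were read for the cells from which some members are known. In bulk liver, fewer cells of a type and less RNA per cell cannot be told apart. Every marker list below is to be read beside the share of measured genes with the same call. With TMM scaling that share was 10.5% for higher and 9.76% for lower. With total-count scaling it was 34.6% and 2.53%. For lymphocytes, where Rgs1 is known, 2 of 17 markers were measured, with 0 higher and 1 lower (0 and 0 with total-count scaling). The summed level of all 17, most of them below the filter, was 14.5 CPM in the control and 10.3 CPM in the LKO-labelled library. In each library 1 marker was at 0, Cd3d in the control and Gzma in the other, both named after their values were seen. Ptprc, the pan-leukocyte phosphatase CD45, stood at −0.19 (log2 ratio), or 0.23 with total-count scaling. For Kupffer cells and macrophages, where Rgs10 is abundant, 0 of 13 measured markers were at least 1.5-fold higher and 7 were lower, where 9.76% of all measured genes were lower, and the sum of all 14 was 234 and 156 CPM, with none at 0. With total-count scaling 1 of 12 was lower and 0 were higher. The median log2 ratio of the 13 measured with TMM scaling went from −0.60 to −0.18. Timd4, a phagocytic receptor of resident Kupffer cells, was 2.34-fold lower (2.04 to 2.68), and C1qb 1.40-fold lower. For stellate cells and pericytes, where Rgs5 is known, 3 of 18 measured markers were higher and 2 lower, with a summed level of 509.9 and 644 CPM and Cspg4 at 0 in both. Total-count scaling put 10 of the 18 higher and 2 lower, beside shares of 34.6% and 2.53%. Pdgfrb, the receptor gene that marks pericytes, was 1.69-fold higher (1.53 to 1.86). The part of these cells in the values of Rgs1, Rgs5 and Rgs10 was not tested. Of 8 platelet markers 0 were measured, with summed levels of 1.43 and 1.81 CPM, beside 0 counts of the platelet gene Rgs18. All 11 hepatocyte markers were measured, led by Alb at 117952 and 91007 CPM, with 0 higher and 2 lower. With total-count scaling 2 were higher and 0 lower, and the log2 ratio of Alb went from −0.37 to 0.05. Endothelial markers had 0 of 12 called with TMM scaling, and 5 higher and 0 lower with total-count scaling. Only 1 neutrophil and 2 cholangiocyte markers were measured, with 0 called under either scaling.

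The G proteins on which RGS proteins act differed little. Of 9 measured alpha subunit genes, 1 was lower by 1.5-fold or more and 0 were higher, with a median log2 ratio of 0.03, where the median over all measured genes was 0.00. At that limit 9.76% of all measured genes were lower and 10.5% higher, or 2.53% and 34.6% with total-count scaling. Gnai2 and Gnaq, which encode alpha subunits of the Gi and Gq classes that Rgs16 acts on, were 1.38-fold (1.33 to 1.43) and 1.37-fold (1.22 to 1.54) higher. Gnas, the gene of the stimulatory alpha subunit, stood at 2501 and 2795 CPM. Gnat1, a transducin gene of rods, was the gene called lower, at 1061 and 900 counts. Beta and gamma subunit genes had 1 of 8 higher, Gng3 at 1.83-fold, and 1 lower, Gngt2 at 1.82-fold, with a median of 0.04. With total-count scaling the alpha, and the beta and gamma, lists each had 2 higher and 0 lower. Proteins that carry an RGS homology domain outside the family had 3 of 14 higher and 2 lower, with a median of 0.08, and 6 higher and 0 lower with a median of 0.50 under total-count scaling. Axin2, a Wnt target gene whose protein scaffolds beta-catenin breakdown, was 2.13-fold higher (1.83 to 2.50), and Arhgef1, a guanine nucleotide exchange factor gene, 1.54-fold higher. Snx25 and the receptor kinase gene Grk5 were 1.90-fold and 1.69-fold lower.

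Receptors went both ways. Of 63 listed G protein-coupled receptor genes 30 were measured, with 7 higher and 6 lower and a median of 0.26 (log2 ratio). Over all measured genes 10.5% were higher and 9.76% lower. With total-count scaling 18 were higher and 3 lower of 29, against 34.6% and 2.53% of all. Adra1a, an alpha-1 adrenergic receptor gene coupled to Gq, had 300 counts (2.71 CPM) and 1697 counts (11.1 CPM), 4.11-fold higher. The sphingosine 1-phosphate receptor genes S1pr1 and S1pr5, both coupled to Gi, were 2.27-fold (2.16 to 2.39) and 3.10-fold (2.46 to 3.94) lower. Gcgr, the glucagon receptor gene and the most abundant of the list by count, was 1.21-fold higher. Second messenger genes had 5 of 22 higher and 1 lower, against 10.5% and 9.76% of all measured genes, with a median of 0.12. Pde4d, which breaks down cAMP, and Adcy6, which makes it, were 3.31-fold (2.83 to 3.89) and 2.27-fold (2.09 to 2.46) higher, while Pde4a was 1.88-fold lower. With total-count scaling 9 of the 22 were higher and 0 lower, against 34.6% and 2.53% of all.

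With TMM scaling, more genes known to be induced by cAMP were lower than higher, and more ChREBP genes were higher than lower. Both lists were chosen with earlier results of these data known, so these counts describe the listed genes and test nothing. Of 15 measured cAMP and CREB target genes 1 was higher and 6 were lower, against 10.5% and 9.76% of all measured genes, and the median log2 ratio was −0.26, or 0.16 with total-count scaling, where 4 were higher and 4 lower, against 34.6% and 2.53% of all. Sik1, a kinase gene induced by cAMP, was 2.91-fold lower (2.71 to 3.13), and the serine and tyrosine catabolic genes Sds and Tat were 2.69-fold and 2.24-fold lower. Irs2 was the gene called higher, at 1.68-fold. Of 24 ChREBP list genes 11 were higher, against 10.5% of all measured genes, and 1 was lower, with a median of 0.54, and with total-count scaling 18 were higher, against 34.6% of all, and 1 lower. Txnip, which limits glucose uptake, was 4.79-fold higher (4.68 to 4.91), from 67.3 to 322 CPM, and Fgf21 4.59-fold higher (3.91 to 5.42). Scd1, a desaturase gene, was 3.0-fold higher. The exception was G6pc, the glucose-6-phosphatase gene that both lists hold, at 2.53-fold lower, and Mlx, the partner gene of ChREBP, was 1.44-fold lower. Within this list no gene had a ratio as large as that of Rgs16.

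**Figure D5:**
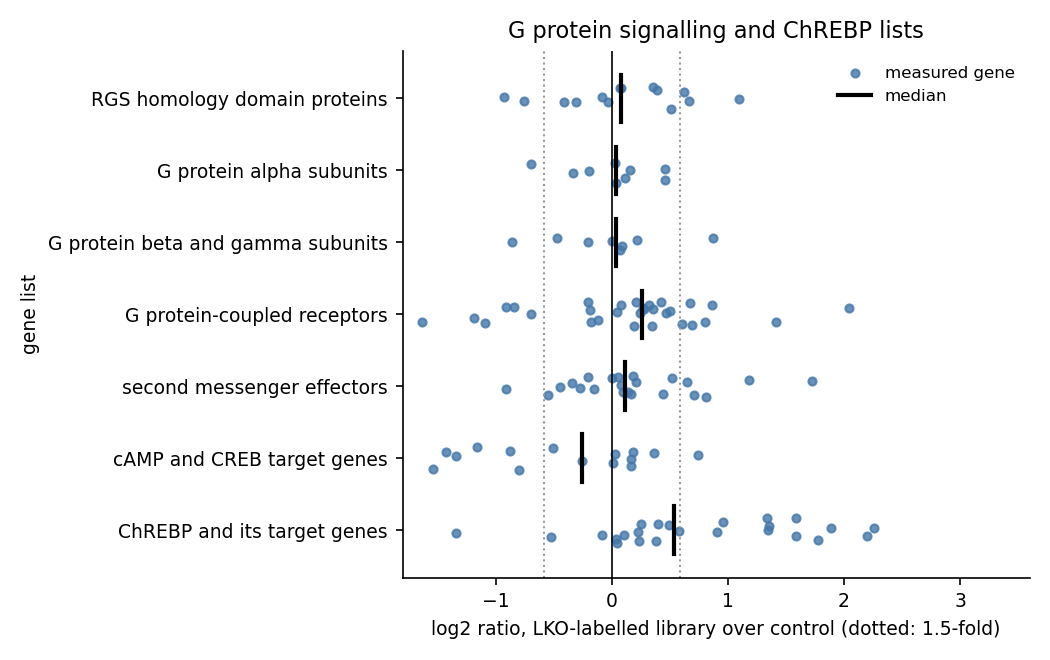
Log2 ratio (library labelled LKO over control, TMM scaling) of the measured genes of 7 lists, 1 point per gene, with the list median as a black bar; vertical scatter has no meaning. The ChREBP list has its median at 0.54 and the cAMP and CREB list at −0.26, while the alpha subunit list is centred at 0.03.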

How the data were processed

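The values the authors deposited are raw read counts, whole numbers listed by gene symbol in a table for each library. Libraries were made with a LEXOGEN mRNA-Seq kit from 500 ng of RNA, per the labels' protocols, and per the submitters' processing notes TopHat, edgeR and build mm10 were used. The sources used here name no counter, annotation or use of strand, so reads of overlapping or antisense genes cannot be told apart.

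Counts were scaled with TMM factors of edgeR 4.0.16 in R 4.3.3. Ratios are scaled counts of the LKO-labelled library over control, with 95% Clopper-Pearson intervals given the summed count; a count of 0 was set to 3 counts for a fold. No p-value was computed, as each group has 1 library. PCR duplicates make intervals too narrow, and so would counts summed over the transcripts of a gene. The code was checked on simulated Poisson counts. These follow the model behind the intervals, so they cannot show how the intervals hold in real libraries. Members and the 16 gene and marker lists were chosen with earlier results of these data known. Named were all members, every further RGS gene with a count, up to 2 highest, 2 lowest and the most abundant measured gene of each pathway list, up to 4 of each marker list by level and ratio, the genes beside a member where discussed, and the 5 genes nearest Rgs16 in ratio, without unnamed gene models. Of 24421 symbols 23376 matched GENCODE M21, which gave positions and the longest coding transcript. Upstream windows are from RefSeq. Alternatives were other scalings (total count, upper quartile, DESeq2 1.42.0, totals that leave out the 20 most abundant genes), filters, fold limits, added counts and halved counts. Protein sequences were not used here. A few genes that the naming rule takes are not reported here.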

Additional observations from a re-analysis of the deposited data

How the results depend on the processing

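The log2 ratio of Rgs16 lay between 6.19 and 6.66 under every scaling and added count run, and only total-count scaling, at 6.66, put it outside its counting interval. With halved counts its ratio had an interval of 60.1 to 96.1. The number of members at least 1.5-fold higher was 2 under each scaling and filter except no filter, where it was 3, and 1 at a limit of 2-fold. The number at least 1.5-fold lower, 2, was 3 with no filter, 0 with total-count scaling and 0 at 2-fold. It was 1 both without the 20 most abundant genes and at a mean CPM of 5. Over all measured genes, 426 lay 2-fold or more above control and 292 below. These counts were 1211 and 120 with total-count scaling, 1287 and 1063 without a filter, 218 and 157 at a mean CPM of 5, and 170 and 97 at 3-fold. Without the 20 most abundant genes 689 were higher. At 1.5-fold, 1169 were higher and 1087 lower, against 3866 and 282 with total-count scaling, 2389 and 2111 without a filter and 628 and 631 at a mean CPM of 5, and 1978 higher without the 20 most abundant genes. The share of Rgs16 in the summed RGS level per kilobase was 3.05% and 77.5%. In alternatives chosen after seeing the data it was 3.25% in the control without division by length, 0.723% and 42.4% with the shortest coding transcript, and 7.75% and 90.1% when divided also by the number of curated transcripts. Of 48 ratios of the other members under these scalings and added counts, 41 stayed in their counting interval and 0 of the called ones changed sign. Of 192 list counts, 50 moved by more than 1.5 times, 18 of them with total-count scaling. No paired analysis was possible because each genotype has 1 library. Depth limits Rgs1, Rgs2, Rgs14 and the further RGS genes, all below 1 CPM.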

Other observations

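Some genes best known from retina had counts in both liver libraries. Gnat1, the rod transducin gene, had 1061 and 900 counts, and Grk1, a receptor kinase gene of photoreceptors, had 239 and 521, which was 1.58-fold higher (1.36 to 1.86) in the LKO-labelled library. As strand use and the treatment of overlapping genes are unknown, whether these reads arose from the genes themselves was not tested.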
